A study of Homo sapiens with 10 samples.

Results

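The genes described here encode 10 secreted or matrix-associated proteins: fibronectin (FN1), the thrombospondins THBS1 and THBS2, tenascin C (TNC), SPARC, fibrillin-1 (FBN1), the hyaluronan link protein HAPLN1, versican (VCAN), follistatin-like 1 (FSTL1) and galectin-1 (LGALS1). They were chosen by symbol, as every gene row whose name field holds 1 of the 10 symbols, and each symbol matched a single row of the 23170 gene rows in each deposited table. The isoform tables held 19 rows for these genes out of 37557, of which FN1 had 6, VCAN had 4, FSTL1 had 2 and each of the other 7 genes had 1.

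RNA-seq was performed on 10 samples of PC3, a human prostate cancer cell line, in 4 lines. PC3-Epi (2 samples) is a luciferase-expressing subpopulation picked for its bright luciferase signal and epithelial shape. PC3-EMT14 (3 samples) is a mesenchymal population recovered after PC3-Epi cells grew together with macrophages made from human CD14+ monocytes, so it descends from PC3-Epi and is 1 isolated population. In PC3-EMT14-OVOL1 (3 samples) a lentivirus adds the zinc-finger transcription factor OVOL1 to PC3-EMT14 cells, and in PC3-EMT14-OVOL2 (2 samples) it adds OVOL2 with a V5 tag. All 4 lines share the PC3 background and the luciferase selection, and were grown in the same serum-containing medium. No library of PC3-EMT14 with an empty vector was analysed here, so the OVOL lines were set against untransduced PC3-EMT14.

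Each table gives 1 value per gene and line in FPKM (fragment counts corrected for how long the transcript is and how many fragments the library gave), which the authors pooled over the samples of that line. All levels below are these pooled values, so no SD, no test and no p-value stands behind any difference, and the depth of each sample is unknown. Differences are described by the ratio of 2 values in the same table, and a gene is called higher or lower when the ratio was at least 2 or at most 0.5 with 1 FPKM or more in the higher line. PC3-EMT14 is in 3 of the 4 comparisons and served as the denominator in each, so those comparisons share its libraries. Levels listed for PC3-EMT14 beside all other lines come from its table with PC3-EMT14-OVOL1. The value of a line differed between tables by at most 3.28% for these 10 genes. Since no replicate value was at hand, 2 lines next to each other in an order of levels cannot be said to differ beyond their spread.

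Matrix glycoproteins form the meshwork outside cells and tell cells where they are. Fibronectin is assembled into fibrils by integrins, fibrillin-1 builds microfibrils that hold latent TGFβ complexes, and versican is tied to hyaluronan chains by HAPLN1. Thrombospondins, tenascin C, SPARC and galectin-1 are matricellular proteins, which adjust adhesion, signalling and matrix assembly rather than bear load. Fibronectin and SPARC are widely used as markers of the mesenchymal state.

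The overexpressed genes followed the labels. OVOL1 was at 0.0238 FPKM in PC3-EMT14, 11.3 in PC3-EMT14-OVOL1, 0.0701 in PC3-EMT14-OVOL2 and 4.25 in PC3-Epi. OVOL2 was at 0.374 FPKM in PC3-EMT14, 0.562 in PC3-EMT14-OVOL1, 831 in PC3-EMT14-OVOL2 and 9.91 in PC3-Epi. The levels of the 2 factors in their lines therefore differed widely, and dose and factor cannot be told apart between the OVOL lines. Of 6 epithelial markers, 3 were higher than in PC3-EMT14 in PC3-EMT14-OVOL1, 4 in PC3-EMT14-OVOL2 and 5 in PC3-Epi, and 0 were lower. Of 7 mesenchymal markers, 1 was higher and 1 lower in PC3-EMT14-OVOL1, 1 and 3 in PC3-EMT14-OVOL2, and 0 and 3 in PC3-Epi. Shares of all gene rows for these comparisons are given with the 10 genes below. The levels of 1 marker from each list follow, and the counts above show that not all mesenchymal markers went the same way. CDH1, which encodes E-cadherin, was at 0.981 FPKM in PC3-EMT14, 16.2 in PC3-EMT14-OVOL1, 39.2 in PC3-EMT14-OVOL2 and 50.6 in PC3-Epi. VIM, which encodes vimentin, was at 265, 183, 76.9 and 42.5 FPKM in the same order, and so was within 2-fold in PC3-EMT14-OVOL1. Of 14 macrophage markers, CD68 was at 53.0, 51.2, 57.8 and 13.2 FPKM in that order, while each of the other 13 was at 0.176 FPKM or below in every line and C1QA, C1QB and C1QC were listed at 0 throughout. The 14 markers together summed to 53.3, 51.6, 58.3 and 13.6 FPKM. Of 8 fibroblast markers only COL1A1 reached 1 FPKM, and the 8 together summed to 4.33, 2.83, 4.21 and 2.64 FPKM. In these bulk samples, fewer cells that express a gene and less RNA per cell cannot be told apart.

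Of the 10 genes, 8 were at 1 FPKM or more in PC3-EMT14, and THBS2 and VCAN were under it in all 4 lines. In PC3-EMT14-OVOL1, 1 gene was higher than in PC3-EMT14 (THBS1) and 2 were lower (FBN1 and HAPLN1), where 2.43% of all 12197 gene rows at that level were higher and 1.54% lower. In PC3-EMT14-OVOL2, 1 gene was higher (THBS1) and 5 were lower (HAPLN1, SPARC, FSTL1, FN1 and FBN1), where 4.42% of 12307 gene rows were higher and 2.93% lower. In PC3-Epi, 1 gene was higher (THBS1) and 3 were lower (FBN1, HAPLN1 and FSTL1), where 7.37% of 12441 gene rows were higher and 8.34% lower. The median log2 ratio of the 8 genes was -0.50 in PC3-EMT14-OVOL1, -1.09 in PC3-EMT14-OVOL2 and -0.68 in PC3-Epi, and that of all gene rows was -0.0018, -0.040 and -0.014. These genes were picked with earlier results of the same samples known, so the shares describe them and test nothing.

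**Figure D1:**
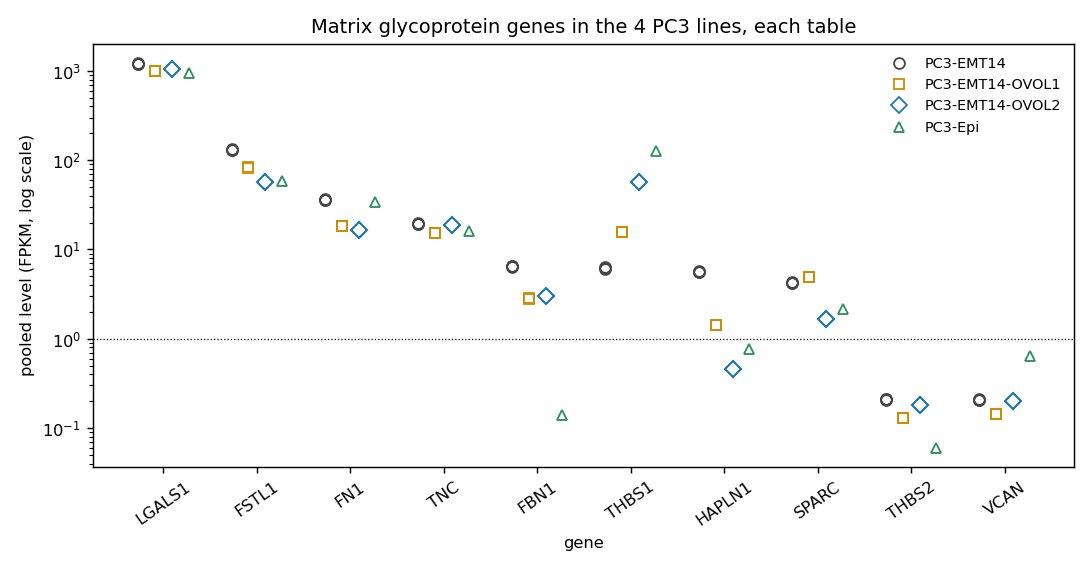
Pooled level of the 10 genes in the 4 lines in FPKM on a log axis, with 1 symbol per line and table, so that a line that is in several tables has several, nearly coincident symbols. The dotted line is 1 FPKM. LGALS1 lies between 941 and 1218 FPKM in the 4 lines, THBS1 climbs from 6.16 FPKM in PC3-EMT14 to 126 in PC3-Epi, and FBN1 drops to 0.141 in PC3-Epi.

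**Figure D2:**
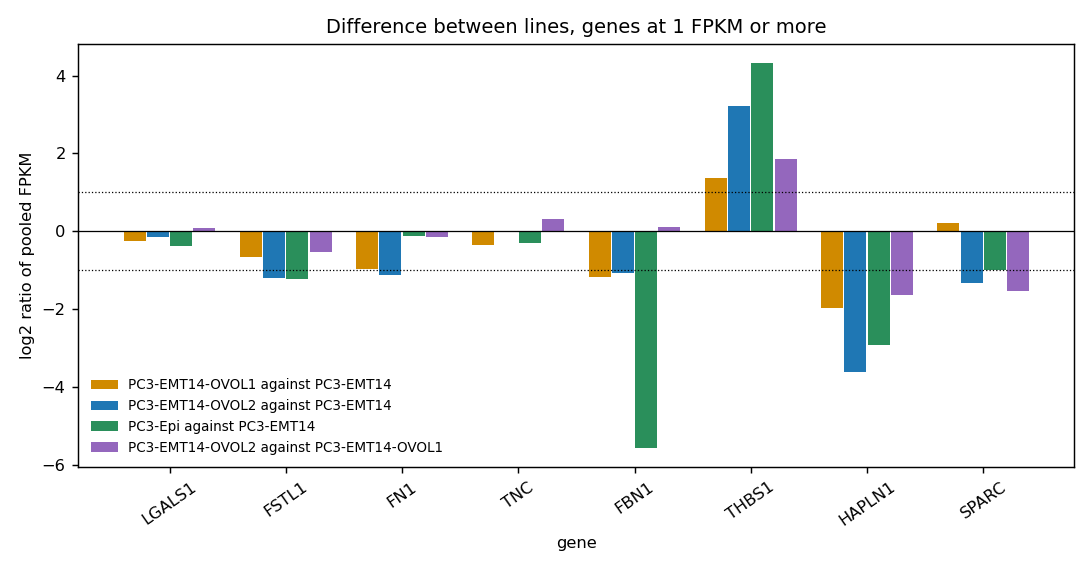
Log2 ratio of pooled FPKM for the 8 genes at 1 FPKM or more, with a bar per comparison and dotted lines at the 2-fold limits. THBS1 has positive bars in all 4 comparisons, HAPLN1 has negative bars in all 4, and the longest bar is FBN1 in PC3-Epi at -5.55.

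Fibronectin, the fibril-forming ligand of the integrin that ITGA5 and ITGB1 encode, was at 36.0 FPKM in PC3-EMT14, 18.4 in PC3-EMT14-OVOL1, 16.5 in PC3-EMT14-OVOL2 and 33.8 in PC3-Epi. Both OVOL lines were thus low and the epithelial line stood beside the mesenchymal one. The FN1 log2 ratio to PC3-EMT14 was -0.97 in PC3-EMT14-OVOL1, just inside the 2-fold limit at 1.96-fold lower, and -1.11 in PC3-EMT14-OVOL2, where it was 2.17-fold lower. In PC3-Epi it was -0.12. A log2 ratio as low as that of FN1 was found in 1.66% of gene rows for PC3-EMT14-OVOL1 and 2.4% for PC3-EMT14-OVOL2, against 41.2% for PC3-Epi. FN1 spans chr2:216225179-216300791 of hg19 on the minus strand.

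The 6 isoform rows of FN1 did not move in step. The tables name isoforms only by an internal identifier and the locus of the whole gene, so the exons behind each row are not known here. TCONS_00020538, the most abundant row, was at 20.6 FPKM in PC3-EMT14, 9.94 in PC3-EMT14-OVOL1, 9.64 in PC3-EMT14-OVOL2 and 22.9 in PC3-Epi, and made up 57.1%, 54.1%, 58.6% and 67.7% of FN1. TCONS_00020540 was at 8.58, 5.18, 4.90 and 5.75 FPKM in the same lines, or 23.8%, 28.2%, 29.8% and 17.0% of FN1. TCONS_00020542 was at 4.18, 1.16, 0.330 and 1.92 FPKM, or 11.6%, 6.34%, 2.01% and 5.67% of FN1. That last row was lower than in PC3-EMT14 in each of the other lines, by 3.59-fold in PC3-EMT14-OVOL1, 12.5-fold in PC3-EMT14-OVOL2 and 2.23-fold in PC3-Epi. Among all isoform rows at 1 FPKM or more, 2.48%, 4.59% and 9.95% were lower in these comparisons. PC3-Epi therefore had an FN1 total near that of PC3-EMT14 with a larger part in the main row, which was 2.07-fold and 2.11-fold lower in the OVOL lines. The smaller rows TCONS_00020541 and TCONS_00020543 also had larger parts in PC3-Epi, at 8.13% against 6.14% and 0.400% against 0.145%. Splitting fragments between isoforms is an estimate, and the pooled table gives no error for it here.

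**Figure D3:**
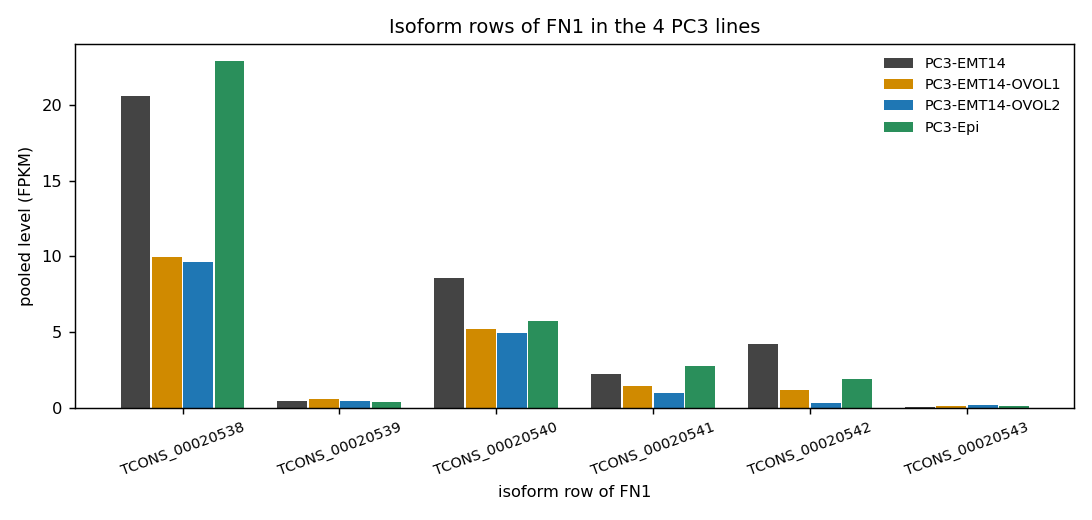
Pooled level in FPKM of the 6 isoform rows of FN1, with a bar per line and an axis from 0. The main row stands at 20.6 in PC3-EMT14 and 22.9 in PC3-Epi and at 9.94 and 9.64 in the OVOL lines, and TCONS_00020542 drops from 4.18 in PC3-EMT14 to 0.330 in PC3-EMT14-OVOL2.

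Thrombospondin-1, a trimeric matricellular protein that binds CD47 and CD36 and can activate latent TGFβ, moved the other way. THBS1 was at 6.16 FPKM in PC3-EMT14, 15.8 in PC3-EMT14-OVOL1, 56.4 in PC3-EMT14-OVOL2 and 126 in PC3-Epi. Each line in this order was above the one before it by at least 2.22-fold, taking each line from its table against PC3-EMT14. Against PC3-EMT14, THBS1 was 2.57-fold higher in PC3-EMT14-OVOL1, 9.26-fold in PC3-EMT14-OVOL2 and 19.95-fold in PC3-Epi. The shares of gene rows with as large an increase were 1.78%, 1.05% and 1.23%. In rank by FPKM among the 23170 gene rows, THBS1 moved from place 8088 in PC3-EMT14 to place 629 in PC3-Epi. The gene lies at chr15:39873280-39889668 of hg19 on the plus strand.

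THBS2, the closest relative of THBS1, was hardly detected. Its levels were 0.209 FPKM in PC3-EMT14, 0.129 in PC3-EMT14-OVOL1, 0.182 in PC3-EMT14-OVOL2 and 0.0604 in PC3-Epi. All 4 values are under the 1 FPKM limit, so no direction is given, and THBS1 was above THBS2 in every line on this length-scaled measure. Of the more distant relatives of both, THBS3, THBS4 and COMP, none was higher or lower by the rule in a comparison against PC3-EMT14.

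Because THBS1 and FN1 moved in opposite directions in the OVOL lines, the sequences just upstream of their starts are shown. RefSeq promoter windows were matched to 9 of the 10 genes, without LGALS1, and the 250 bases before each start were placed on GRCh37, the same assembly as hg19, by exact match. The windows of FN1 (chr2:216300792-216301041, minus strand) and THBS1 (chr15:39873030-39873279, plus strand) end where the deposited locus begins and share no base with it. The other 7 windows overlap the deposited locus of their gene, FBN1 in all 250 bases, HAPLN1 in 222, THBS2 in 196, FSTL1 in 79, VCAN in 70, TNC in 50 and SPARC in 41, so they lie upstream of the RefSeq start but not wholly upstream of the deposited one. Each is given 5′ to 3′ along the gene, and capitals mark the letters TATAA and TGACGTCA.
FN1: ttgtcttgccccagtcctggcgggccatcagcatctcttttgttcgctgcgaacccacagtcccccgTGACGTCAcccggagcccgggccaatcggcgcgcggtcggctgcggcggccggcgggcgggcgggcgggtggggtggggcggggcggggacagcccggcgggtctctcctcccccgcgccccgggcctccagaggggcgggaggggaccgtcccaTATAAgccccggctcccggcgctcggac
THBS1: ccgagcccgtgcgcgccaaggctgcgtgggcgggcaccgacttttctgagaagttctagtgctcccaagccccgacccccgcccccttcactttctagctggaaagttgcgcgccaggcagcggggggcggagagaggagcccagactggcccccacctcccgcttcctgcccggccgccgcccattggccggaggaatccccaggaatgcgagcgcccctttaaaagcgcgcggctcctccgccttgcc
The FN1 window holds TATAA from 28 to 24 bases before the start and TGACGTCA, the palindrome known as the cyclic AMP response element, from 183 to 176 bases before it. The THBS1 window holds neither. These letters were searched after the windows had been read, on both strands. TATAA was in 4 of the 9 windows (FN1, THBS2, TNC and VCAN) and in 18.9% of all 35116 promoters over the same bases, and TGACGTCA was in 1 of 9 and in 1.65% of all. Of the motifs tied to the factors of the study, the OVOL2 consensus that the study quotes was in 0 of 9 windows and 0.877% of all, CCGTTA, 1 of the sequences that its middle positions allow, in 0 of 9 and 2.45%, and the ZEB-type E-box CACCTG in 0 of 9 and 17.5%. A match or its absence describes these letters in these windows and says nothing of binding.

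Fibrillin-1, the backbone of the microfibrils that hold latent TGFβ binding proteins, gave the widest range. FBN1 was at 6.45 FPKM in PC3-EMT14, 2.84 in PC3-EMT14-OVOL1, 3.04 in PC3-EMT14-OVOL2 and 0.141 in PC3-Epi. The OVOL lines were close to each other, with a ratio of 1.08 between them in their own table, and the epithelial line was far below both. Against PC3-EMT14, FBN1 was 2.27-fold lower in PC3-EMT14-OVOL1, 2.10-fold in PC3-EMT14-OVOL2 and 46.9-fold in PC3-Epi. The last ratio rests on a level well under 1 FPKM in PC3-Epi, where few fragments are expected and the error is not known. FBN1 lies at chr15:48700503-48937985 on the minus strand, and its relatives FBN2 and FBN3 were not called in any comparison against PC3-EMT14.

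HAPLN1, the link protein that locks versican and other proteoglycans onto hyaluronan, was highest in PC3-EMT14. It was at 5.66 FPKM there, 1.43 in PC3-EMT14-OVOL1, 0.458 in PC3-EMT14-OVOL2 and 0.769 in PC3-Epi. PC3-EMT14-OVOL2 and PC3-Epi were both under 1 FPKM. HAPLN1 was 3.94-fold lower than in PC3-EMT14 in PC3-EMT14-OVOL1, 12.2-fold in PC3-EMT14-OVOL2 and 7.51-fold in PC3-Epi. Among all gene rows, 0.541%, 0.431% and 1.98% were as low or lower in these comparisons.

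Versican, the large hyaluronan-binding proteoglycan that HAPLN1 secures, stayed low. VCAN was at 0.208 FPKM in PC3-EMT14, 0.144 in PC3-EMT14-OVOL1, 0.202 in PC3-EMT14-OVOL2 and 0.637 in PC3-Epi. PC3-Epi had the highest value, 3.00-fold that of PC3-EMT14, but all 4 are under 1 FPKM and no direction is given. Of its 4 isoform rows, 2 were listed at 0 in every line, and TCONS_00026529 made up 80.2%, 79.4%, 81.7% and 88.1% of VCAN in the same order, with TCONS_00026531 making up the rest. VCAN (chr5:82767493-82878122, plus strand) and HAPLN1 (chr5:82934017-83016896, minus strand) are neighbours with 55.9 kb between them, and HAPLN1 is the nearest gene on that side that reached 1 FPKM in a line.

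Among 10 genes that make, break down or bind hyaluronan, 7 were at 1 FPKM or more. HAS2, 1 of the hyaluronan synthases, was lower in PC3-EMT14-OVOL1, at 5.95 FPKM in PC3-EMT14 and 2.34 in PC3-EMT14-OVOL1. In PC3-EMT14-OVOL2 and PC3-Epi it was at 6.29 and 8.55 FPKM. HAS3, the most abundant synthase, was at 259 FPKM in PC3-EMT14 and 191 in PC3-EMT14-OVOL1, and was lower in PC3-EMT14-OVOL2 at 112 and in PC3-Epi at 86.7. No gene of this list was higher in a comparison against PC3-EMT14. In each of the 3, 1 gene of the list was lower. Of all gene rows, 1.54% were lower in PC3-EMT14-OVOL1, 2.93% in PC3-EMT14-OVOL2 and 8.34% in PC3-Epi. The median log2 ratio of the list was -0.16 for the OVOL1 line, 0.10 for the OVOL2 line and 0.04 for PC3-Epi.

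SPARC, a collagen-binding matricellular glycoprotein, separated the OVOL lines. It was at 4.23 FPKM in PC3-EMT14, 4.92 in PC3-EMT14-OVOL1, 1.68 in PC3-EMT14-OVOL2 and 2.17 in PC3-Epi. PC3-EMT14-OVOL1 stood with PC3-EMT14, and PC3-EMT14-OVOL2 with PC3-Epi. SPARC was 2.49-fold lower than PC3-EMT14 in PC3-EMT14-OVOL2 and 1.99-fold lower in PC3-Epi, just inside the limit. Its locus is chr5:151041009-151066517 on the minus strand.

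The table that sets the OVOL lines against each other held 1 higher gene and 2 lower ones in PC3-EMT14-OVOL2, with 1.90% of 12188 gene rows higher and 1.17% lower. THBS1 was higher, at 15.7 FPKM in PC3-EMT14-OVOL1 and 56.4 in PC3-EMT14-OVOL2, or 3.60-fold. SPARC was lower, at 4.87 against 1.68 FPKM, or 2.90-fold. HAPLN1 was lower too, at 1.42 against 0.458 FPKM, or 3.10-fold, and reached the 1 FPKM limit only through PC3-EMT14-OVOL1. The other 5 genes at that level were within 2-fold, and the median log2 ratio of the 8 was -0.03 beside -0.04 for all gene rows.

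FSTL1, a secreted glycoprotein whose domains resemble those of follistatin and SPARC, was the second most abundant of the 10 in PC3-EMT14. It was at 131 FPKM in PC3-EMT14, 83.0 in PC3-EMT14-OVOL1, 57.0 in PC3-EMT14-OVOL2 and 57.7 in PC3-Epi. PC3-EMT14-OVOL2 and PC3-Epi had nearly the same level, with a ratio of 1.01 across their tables, and PC3-EMT14-OVOL1 was in between. FSTL1 was 2.27-fold lower in PC3-EMT14-OVOL2 and 2.32-fold lower in PC3-Epi, and its ratio of 1.58 in PC3-EMT14-OVOL1 was within the limit. Of its 2 isoform rows, 1 held the whole level and the other was listed at 0 in every line. It lies at chr3:120113061-120169918 on the minus strand.

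Tenascin C, a large anti-adhesive matricellular protein, and galectin-1, a lectin that binds galactose-containing glycans on matrix and cell surface, were within 2-fold everywhere. TNC was at 19.5 FPKM in PC3-EMT14, 15.4 in PC3-EMT14-OVOL1, 19.0 in PC3-EMT14-OVOL2 and 16.1 in PC3-Epi. LGALS1 was at 1192, 1008, 1062 and 941 FPKM in the same order. Within a table, PC3-EMT14 was 1.27-fold above PC3-EMT14-OVOL1, the lowest line, for TNC and 1.29-fold above PC3-Epi, the lowest line, for LGALS1. LGALS1 was among the most abundant genes of these cells, at place 23 in PC3-EMT14 and place 44 in PC3-Epi of 23170 gene rows. TNC lies at chr9:117782805-117880486 on the minus strand and LGALS1 at chr22:38071613-38075809 on the plus strand.

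**Figure D4:**
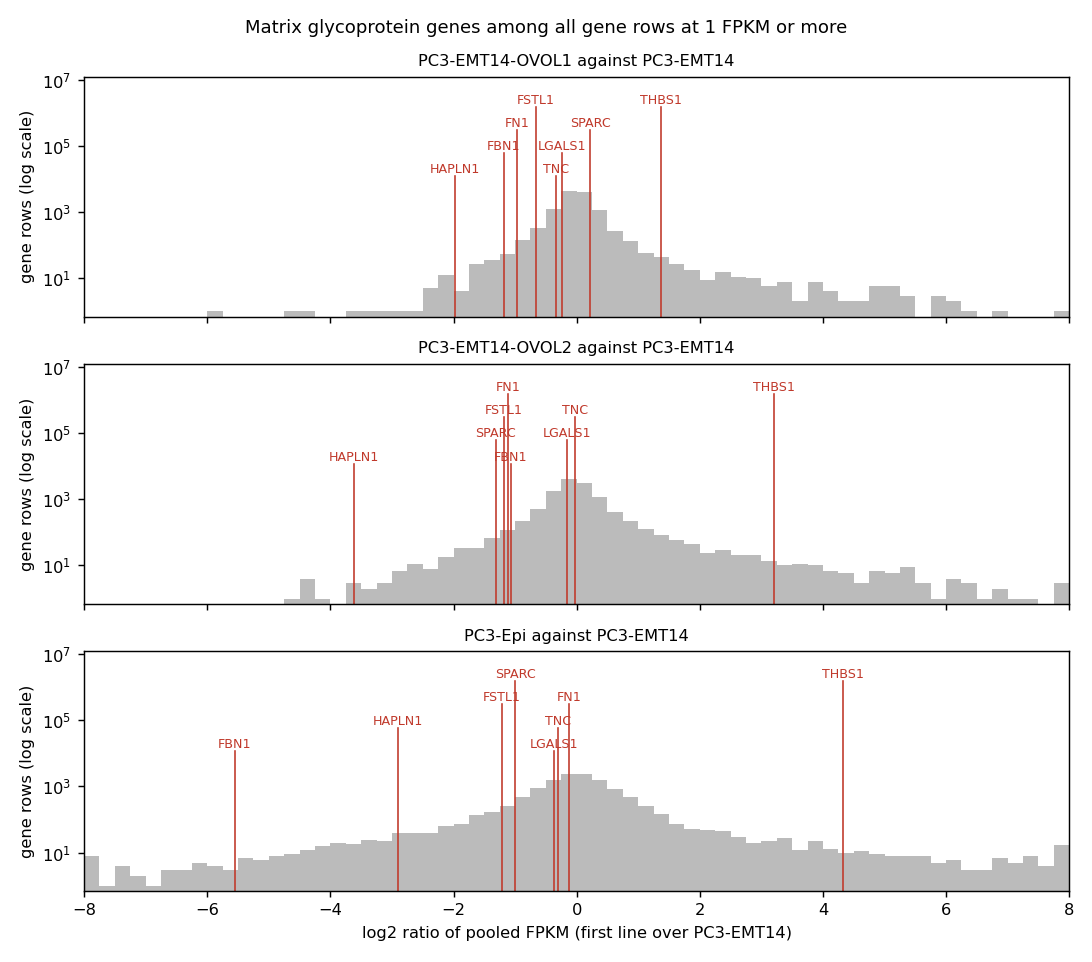
Number of gene rows (log axis) by log2 ratio of pooled FPKM in the 3 comparisons against PC3-EMT14, for gene rows at 1 FPKM or more, with ratios beyond 8 placed in the end bins. Red lines mark the 8 genes and their height carries no value. THBS1 lies to the right in each panel, at 1.36, 3.21 and 4.32, while LGALS1 and TNC lie in the central peak.

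Cells meet these proteins through integrins, CD44, CD47 and syndecans. Of 15 receptors and binding partners, 10 or 11 were at 1 FPKM or more. ITGB3, the integrin β3 subunit that binds fibronectin and thrombospondin with αv, was lower in all 3 comparisons. It was at 15.3 FPKM in PC3-EMT14, 6.72 in PC3-EMT14-OVOL1, 1.98 in PC3-EMT14-OVOL2 and 5.48 in PC3-Epi. ITGA5, the α subunit of the main fibronectin receptor, was at 36.0, 25.7, 22.0 and 9.04 FPKM in the same order and was lower in PC3-Epi, by 4.07-fold. LRP1, which takes up thrombospondin-1 from outside the cell, was at 8.59, 7.01, 8.83 and 2.65 FPKM and was lower in PC3-Epi, by 3.31-fold. ITGB6, the β6 subunit found on epithelial cells, was the only higher gene of the list, at 6.28 FPKM in PC3-Epi and no more than 0.0822 in the other lines. ITGB1, CD44, CD47, ITGAV and SDC4 were within 2-fold throughout. The list had 0 higher and 1 lower gene in each OVOL comparison, and 1 higher and 3 lower in PC3-Epi, with medians of -0.17, -0.09 and 0.11. Of all gene rows at that level, 2.43%, 4.42% and 7.37% were higher in the 3 comparisons. The shares that were lower were 1.54%, 2.93% and 8.34%, so counts this small describe the list and no more.

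Relatives of the 10 genes were mostly under 1 FPKM, with 8 of 32 at or above it in each comparison against PC3-EMT14. SPOCK3, a proteoglycan of the SPARC family, was lower in all 3 comparisons, at 1.35 FPKM in PC3-EMT14, 0.436 in PC3-EMT14-OVOL1, 0.304 in PC3-EMT14-OVOL2 and 0.0813 in PC3-Epi. SPOCK1 of the same family was at 17.9, 11.2, 10.3 and 4.67 FPKM and was lower in PC3-Epi, by 3.91-fold. No relative was higher by the rule, and the medians of the list were -0.05, -0.14 and -0.52. FST came just inside the limit in PC3-EMT14-OVOL2, at 669 FPKM against 337 in PC3-EMT14, or 1.99-fold. In PC3-Epi it was at 252 against 348. The list had 1, 1 and 2 lower genes in the 3 comparisons, where 1.54%, 2.93% and 8.34% of all gene rows were lower.

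Of 50 other matrix glycoproteins and proteoglycans, 21 to 23 were at 1 FPKM or more. In PC3-EMT14-OVOL1, 2 were higher and 3 lower, in PC3-EMT14-OVOL2 4 and 4, and in PC3-Epi 2 and 9, with medians of -0.09, -0.07 and -0.50. Of all gene rows at that level, 2.43%, 4.42% and 7.37% were higher and 1.54%, 2.93% and 8.34% lower in these comparisons. NPNT, which encodes the basement membrane ligand nephronectin, was higher in all 3, at 0.109 FPKM in PC3-EMT14, 4.39 in PC3-EMT14-OVOL1, 5.37 in PC3-EMT14-OVOL2 and 19.5 in PC3-Epi. EFEMP1, a fibulin, was also higher in all 3, at 2.24, 5.52, 10.6 and 30.5 FPKM, and so had the same order of lines as THBS1.

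LTBP1 and MFAP2, whose proteins join fibrillin in microfibrils, were lower in all 3 comparisons, as was TGFBI. LTBP1, which anchors latent TGFβ to fibrillin, was at 55.5 FPKM in PC3-EMT14, 27.7 in PC3-EMT14-OVOL1, 14.7 in PC3-EMT14-OVOL2 and 8.89 in PC3-Epi, and its ratio in PC3-EMT14-OVOL1 lay on the limit. MFAP2, a microfibril-associated glycoprotein, was at 1.42, 0.579, 0.262 and 0.160 FPKM. TGFBI, a matrix protein induced by TGFβ, was at 12.2, 2.25, 2.54 and 3.67 FPKM and was lower in each line, by 5.40-fold, 4.73-fold and 3.38-fold.

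Each of the other named genes of this list was called in a single comparison against PC3-EMT14. CTGF, a matricellular protein, was lower in PC3-EMT14-OVOL2 at 10.1 FPKM against 34.1 in PC3-EMT14. Its relative CYR61 was higher there at 257 against 127, and MATN2, a matrilin, was higher there at 18.6 against 9.03. ECM1, EFEMP2 and HSPG2, the last of which encodes perlecan of the basement membrane, were lower in PC3-Epi, at 0.648 against 4.59, 0.663 against 2.62 and 3.05 against 11.3 FPKM.

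**Figure D5:**
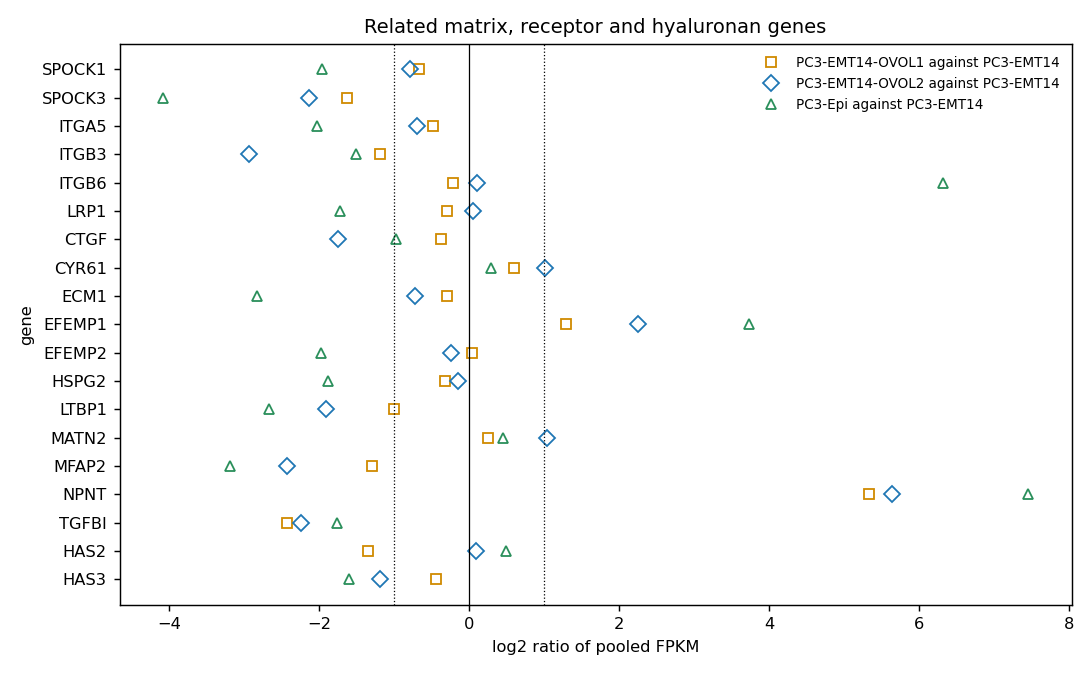
Log2 ratio of pooled FPKM to PC3-EMT14 for the 19 list genes named by the rule, with a symbol per comparison and dotted lines at the 2-fold limits. NPNT and EFEMP1 lie right of the upper limit in all 3 comparisons, and ITGB3, MFAP2, SPOCK3 and TGFBI lie left of the lower limit in all 3.

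For each of the 8 genes, the gene rows with the most similar pattern were found as the smallest root mean square difference of the 3 log2 ratios to PC3-EMT14, among 12446 gene rows above 0 in every table and at 1 FPKM or more in a line. THBS1 was nearest to TGFB2 at 0.19, LRRC26 at 0.21 and IL1RN at 0.28. TGFB2, which encodes a TGFβ ligand, had log2 ratios of 1.65, 3.25 and 4.47 where THBS1 had 1.36, 3.21 and 4.32. FBN1 was nearest to GABRA3 at 0.19, AADAC at 0.23 and ODZ3 at 0.24, and FN1 had GMPR at 0.13 and FAM5B at 0.17 among its nearest. SPARC was nearest to F2R, the thrombin receptor gene, at 0.11, then ABI3BP at 0.29 and FLJ43390 at 0.30. FSTL1 was nearest to SULF2 at 0.05, ZNF222 at 0.07 and SNTB2 at 0.10. HAPLN1 had no close match, with EPHA5 at 0.52, TIE1 at 0.60 and C5 at 0.72. TNC (MAVS, SERTAD3 and NMB, at 0.03 to 0.04) and LGALS1 (PIGV and PHF23 among its nearest, at 0.02 each) lay in the dense centre of small ratios, where many genes are alike. The 3 ratios share the PC3-EMT14 values, so likeness over them is a description of 3 points.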

How the data were processed

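RNA-seq was performed on 10 samples of 4 PC3 lines. Per the study's methods, TopHat placed the authors' paired-end reads on UCSC hg19 transcripts, and Cuffdiff with upper-quartile normalization set lines against each other in pairs. They deposited FPKM values, pooled over each line's samples, in 8 tables. Per the labels, FastQC, Cufflinks and Cuffdiff were used on hg19. The tables also hold the authors' fold changes, test statistics, p-values, q-values and significance calls, which were not used here. Columns of per-sample values left unused: 0. Depth is not stated in the sources used here.

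Ratios were computed in Python 3.11.15 (numpy 2.4.6, pandas 2.3.3) without a pseudocount, within a table. A gene was called at 2-fold or more with 1 FPKM or more in the higher line. Calls by ratio and the search for nearest patterns were tested on simulated data, and the medians were not. Named were all 10 genes, at most 5 list genes per direction and comparison against PC3-EMT14 by size, the 3 nearest patterns of each gene (2 of these genes are not reported here), and OVOL1 and OVOL2. A list gene with several rows was taken from its row with the highest FPKM. Members and lists were chosen with earlier results of these data known. The calls do not account for replicate error. Plots were drawn with matplotlib 3.10.9. Alternatives covered thresholds, floors, pseudocounts, centring, isoform sums and the table a line's value came from.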

Additional observations from a re-analysis of the deposited data

How the results depend on the processing

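No paired analysis was possible because each table holds 1 pooled value per line, and for the same reason no replicate was left out. These limits hold for every ratio: replicate error is unknown, and levels under 1 FPKM rest on an unknown number of fragments.

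The share of all gene rows called was computed only for the 2-fold limit with 1 FPKM. The counts below therefore have no such share beside them, and a looser rule calls more of any set of genes. At a 1.5-fold threshold, 4 of the 10 genes were lower in PC3-EMT14-OVOL1 (FN1 and FSTL1 were added). The genes of the 4 lists past the limit, which were 8 for PC3-EMT14-OVOL1, 11 for PC3-EMT14-OVOL2, 18 for PC3-Epi and 3 between the OVOL lines, became 18 in PC3-EMT14-OVOL2 and 8 between the OVOL lines. At 4-fold, 0 of the 10 were higher and 0 lower in PC3-EMT14-OVOL1, 1 was lower in PC3-EMT14-OVOL2, and 0 were higher and 0 lower between the OVOL lines. The list genes then numbered 2, 6, 8 and 0. With no floor on FPKM, 2 genes were higher in PC3-Epi (VCAN was added) and 4 were lower there (THBS2 was added). The median log2 ratio then moved to -0.63 in PC3-EMT14-OVOL2 and to 0.10 between the OVOL lines, and the list genes numbered 28, 32, 39 and 20. With a floor of 5 FPKM, the median was -0.66 in PC3-EMT14-OVOL1, -0.37 in PC3-Epi and 0.090 between the OVOL lines, where 0 genes were lower, and the list genes in PC3-EMT14-OVOL1 numbered 5. With a pseudocount of 1 FPKM, 1 gene was lower in PC3-EMT14-OVOL1, 3 in PC3-EMT14-OVOL2 and 1 between the OVOL lines, the median was -0.91 in PC3-EMT14-OVOL2 and -0.56 in PC3-Epi, and the list genes in PC3-EMT14-OVOL1 numbered 5.

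Taking the PC3-EMT14 value from the PC3-Epi table put FN1 past 2-fold in PC3-EMT14-OVOL1, at a log2 ratio of -1.003. Of 306 ratios of single genes under the alternatives, 287 stayed on their side of the limit, 15 fell inside it, 4 passed it and 0 turned sign past it. Ratios of genes under the 5 FPKM floor were left out of these 306. The lower calls of SPARC in PC3-EMT14-OVOL2 and of SPARC and HAPLN1 between the OVOL lines were lost that way. Sums of isoform rows gave the gene ratios again. All 18 isoform shares taken from another table moved by less than 1 percentage point. Values of a line come from the same libraries throughout, at a nearly constant scale, so these shares could hardly move. The causes were not tested.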

Other observations

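These flanking genes were picked after their values were seen. EDIL3, which encodes an integrin-binding matrix protein, is the nearest gene at 1 FPKM or more on the far side of HAPLN1, 221 kb away. It was at 35.4 FPKM in PC3-EMT14, 17.9 in PC3-EMT14-OVOL1, 7.30 in PC3-EMT14-OVOL2 and 2.66 in PC3-Epi, so it was highest in the same line as HAPLN1. XRCC4, a DNA repair gene on the side of VCAN that faces away from HAPLN1, 118 kb from VCAN, was at 9.53, 14.4, 18.5 and 11.6 FPKM in the same order.

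TNFSF15, which encodes a cytokine of the tumour necrosis factor family, lies 214 kb from TNC. It was at 0.926 FPKM in PC3-EMT14, 2.06 in PC3-EMT14-OVOL1, 6.83 in PC3-EMT14-OVOL2 and 1.73 in PC3-Epi, while TNC was within 2-fold in every comparison.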
